A study of Mus musculus with 54 samples.

Results

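The genes described here build and service cilia, the microtubule-based hairs of the cell surface. They were chosen from the RNA-seq table by symbol: every row that starts with Dnah, Dnaic, Dnal, Dnaaf, Rsph or Tekt, every Ift or Bbs followed by a number, and Foxj1. The rule found 60 of the 21960 genes in the table. Of these, 38 belong to the axoneme of motile cilia or its assembly (15 Dnah, 5 Dnaic and Dnal, 4 Dnaaf, 8 Rsph and 5 Tekt genes, and Foxj1). The other 22 belong to ciliary transport (14 Ift and 8 Bbs genes).

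A primary cilium is a non-motile sensory hair that most vertebrate cells can form, and it carries the receptors of hedgehog signalling. A motile cilium adds dynein arms, the motors that slide the microtubule doublets, and radial spokes, which coordinate the arms. Motile cilia beat on ependymal cells of the brain ventricles, airway cells and sperm tails. Intraflagellar transport (Ift) trains carry building material along both kinds of cilium, and the BBSome, a coat complex of Bbs proteins, carries membrane receptors. Foxj1 is a forkhead transcription factor known as a master regulator of motile cilia genes, and RFX factors bind the X-box, a motif in the promoters of both kinds of cilium gene.

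RNA was sequenced from R1 mouse embryonic stem cells, an established unmodified line, as they differentiated in retinoic acid. Cells were grown in LIF with 15% knockout serum replacement, aggregated in hanging drops for 48 h, and the embryoid bodies were then kept in medium that, per the labels, held 0.5 mM retinoic acid for up to 20 days. Day 0 has 7 libraries, days 2 and 4 have 3 each, day 10 has 5 and day 20 has 4, and every group was of the same line in the same treatment scheme, with no untreated time course. From the labels it is unclear if day 0 precedes aggregation or the addition of retinoic acid. Separate cultures are not stated for same-day libraries, so p-values measure only the spread between these libraries, which may be technical. An embryoid body is a mixture of cell types, and in such bulk RNA more cells of a type and more RNA per cell cannot be told apart.

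Levels are given as FPKM, fragments scaled by transcript length and library size, with library sums from 472122 to 678222. Read totals are unknown here, so the counting error of a low FPKM is unknown, and values near 0 may rest on few reads. Changes are log2 values of FPKM + 1 with their SE, tested with limma across all tested genes, and a gene was called where its Benjamini-Hochberg adjusted p was under 0.05. Adding 1 understates the change of low genes. A gene was tested if it reached 1 FPKM in at least 3 libraries, which 48 of the 60 genes did, among them all 22 Ift and Bbs genes. The 12 motile axoneme genes that did not were Dnah3, Dnah5, Dnah7b, Dnah7c, Dnah8, Dnah10, Dnah12, Dnah17, Rsph6a, Rsph14, Tekt3 and Tekt5. Of the 26 tested, 5 (Dnah9, Dnali1, Rsph4a, Rsph10b and Tekt4) reached 1 FPKM only at day 20 and Dnah14 only at day 0, so counts are given for all 38 without that filter.

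Promoter sequence was examined because both gene classes are known RFX targets. RefSeq promoters (GRCm38.p6, 250 bases before to 50 after each gene's start) were at hand for 51 of the 60 genes, as 55 promoters. The X-box was searched as GTNNCC, 0 to 3 bases, then GGNNAC, which reads the same on both strands. It was present in 1267 of all 32851 promoters in that table (3.86%), and in 8 of the 55 (14.5%). By class it was in 5 of 19 Ift and Bbs promoters (26.3%) and in 3 of 36 motile axoneme promoters (8.33%). The matches are shown in 30-base windows, 5′ to 3′ on the strand of the gene, with the matched bases in capitals. The search fixed every base of the 2 arms except those written N, so the likeness of the fixed bases between genes was set in advance.
Ift22, upstream match (chr5:136908079-136908108, plus strand): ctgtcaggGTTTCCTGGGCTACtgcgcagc
Ift22, downstream match (chr5:136908109-136908138, plus strand): tgttcccgGTCGCCGTGGAAACtgaccagc
Ift57, upstream match (chr16:49699199-49699228, plus strand): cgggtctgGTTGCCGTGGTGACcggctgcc
Ift57, downstream match (chr16:49699226-49699255, plus strand): gccctgcgGTTGCCTGGTAACggtggggac
Bbs1 (chr19:4906605-4906634, minus strand): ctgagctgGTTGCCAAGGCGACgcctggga
Bbs4 (chr9:59353464-59353493, minus strand): ctcagctgGTCGCCCGGGAAACggtcggct
Bbs7 (chr3:36613489-36613518, minus strand): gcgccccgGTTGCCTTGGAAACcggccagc
Dnaaf5 (chr5:139150209-139150238, plus strand): tagcgccgGTTCCCTTGGAGACaggcaacg
Rsph9 (chr17:46144185-46144214, minus strand): ggctcaggGTCTCCATGGAGACagcttcta
Tekt4 (chr17:25471422-25471451, plus strand): ccccacctGTGTCCTGGGAAACaaactcat
Ift22 and Ift57 each held 2 matches within their promoters. The match of Rsph9 began 6 bases before the start and that of Dnaaf5 18 bases before it, while those of Bbs1 and Bbs4 lay just after the start. The forkhead core GTAAACA, searched on both strands, was in 3.65% of all promoters and in 2 of the 55 (3.64%), those of Dnah17 and Tekt3, and it does not overlap the X-box. A match is a description of these letters and not a bound site. Foxj1 itself is among the 9 genes with no entry.

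Between day 10 and day 20 more motile axoneme genes rose than fell. Without the filter, 20 of the 38 motile axoneme genes were called higher, 4 lower and 14 not called, against 31.9% and 31.4% of all 19709 genes so fitted. Their median log2 change was 0.29, and that of all genes 0.00. Among the 26 tested genes 15 were called higher and 3 lower (37.2% and 38.1% of the 14982 genes tested). Of the 26, 10 rose at least 2-fold on the log2(FPKM + 1) scale. Among those were Dnali1, Rsph4a, Rsph10b and Tekt4, which had reached 1 FPKM only at day 20. The share of all genes that rose as much is not given here, so the 2-fold counts are descriptions. Of the 22 Ift and Bbs genes 9 were called higher and 5 lower, with a median of 0.05, and no gene of them changed 2-fold in either direction. At the 3 earlier steps the 38 genes split 11 higher to 12 lower, 11 to 8 and 12 to 7, where all genes so fitted split 34.5% to 26.1%, 29.7% to 27.8% and 35.1% to 25.1%. The last of these splits turns with scaling: among the 26 tested genes it was 11 higher to 6 lower as deposited and 2 to 12 under quantile normalization. Over the last step the summed level of 6 astrocyte markers went from 506 to 556 FPKM to 1870 to 2050. That of 6 gastric and squamous epithelial markers went from 180 to 205 to 4450 to 5140. Their part in these results was not tested.

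**Figure D1:**
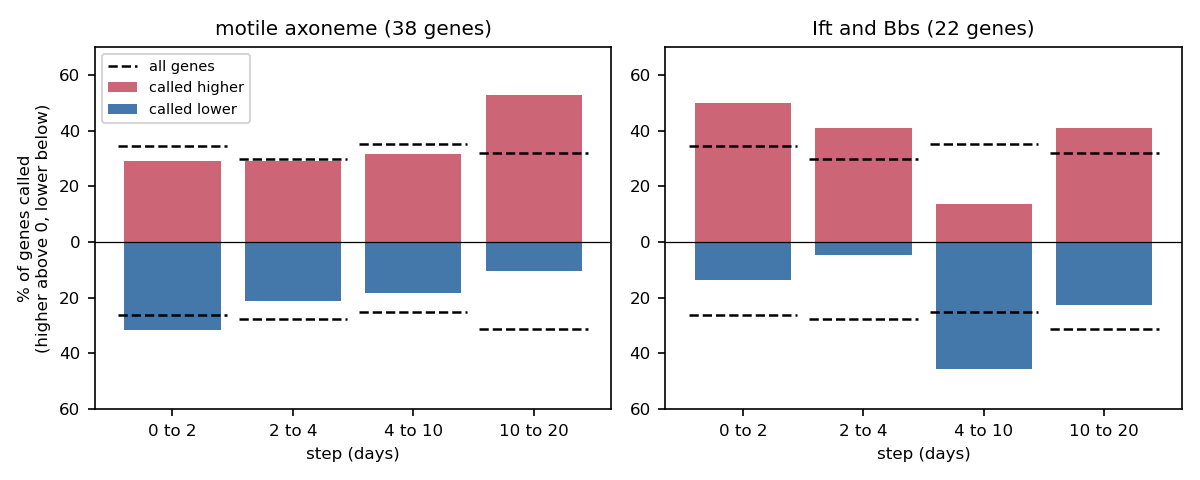
Percent of the 38 motile axoneme genes (left) and 22 Ift and Bbs genes (right) called higher (bars above 0) or lower (bars below 0) at each step between sampled days, limma without the filter on low values, adjusted p under 0.05. Dashed lines give the percent of all 19709 genes called in that direction. At the last step 20 of 38 motile axoneme genes were higher and 4 lower, and at the step from day 4 to day 10, 10 of 22 Ift and Bbs genes were lower.

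The 2 classes also differed in level. All 22 Ift and Bbs genes had a mean of at least 1 FPKM on every day, and the median over the class in a library lay between 5.27 and 12.1. Of the 38 motile axoneme genes, 11 had a mean of at least 1 FPKM at day 0, then 12, 15, 14 and 23 on the following sampled days. Their median in a library was 0.345 to 0.475 at day 0, 0.25 to 0.255 at day 4, 0.53 to 0.72 at day 10 and 1.62 to 1.99 at day 20. Day 20 was the highest day for 20 of the 38 and for 4 of the 22, while day 4 was the highest for 10 of the 22. The ratio of the highest to the lowest day mean was 1.99 at the median over the transport genes (1.33 to 5.37). Over the 34 motile axoneme genes that had such a ratio it was 8.6 (1.78 to 181). The 181 was that of Rsph4a, whose day-4 mean was 0.02 FPKM. Many of these genes had a lowest day mean near 0, where such a ratio is imprecise and can be inflated. Differences between days in a class are descriptions of these genes, and no test compared the classes.

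**Figure D2:**
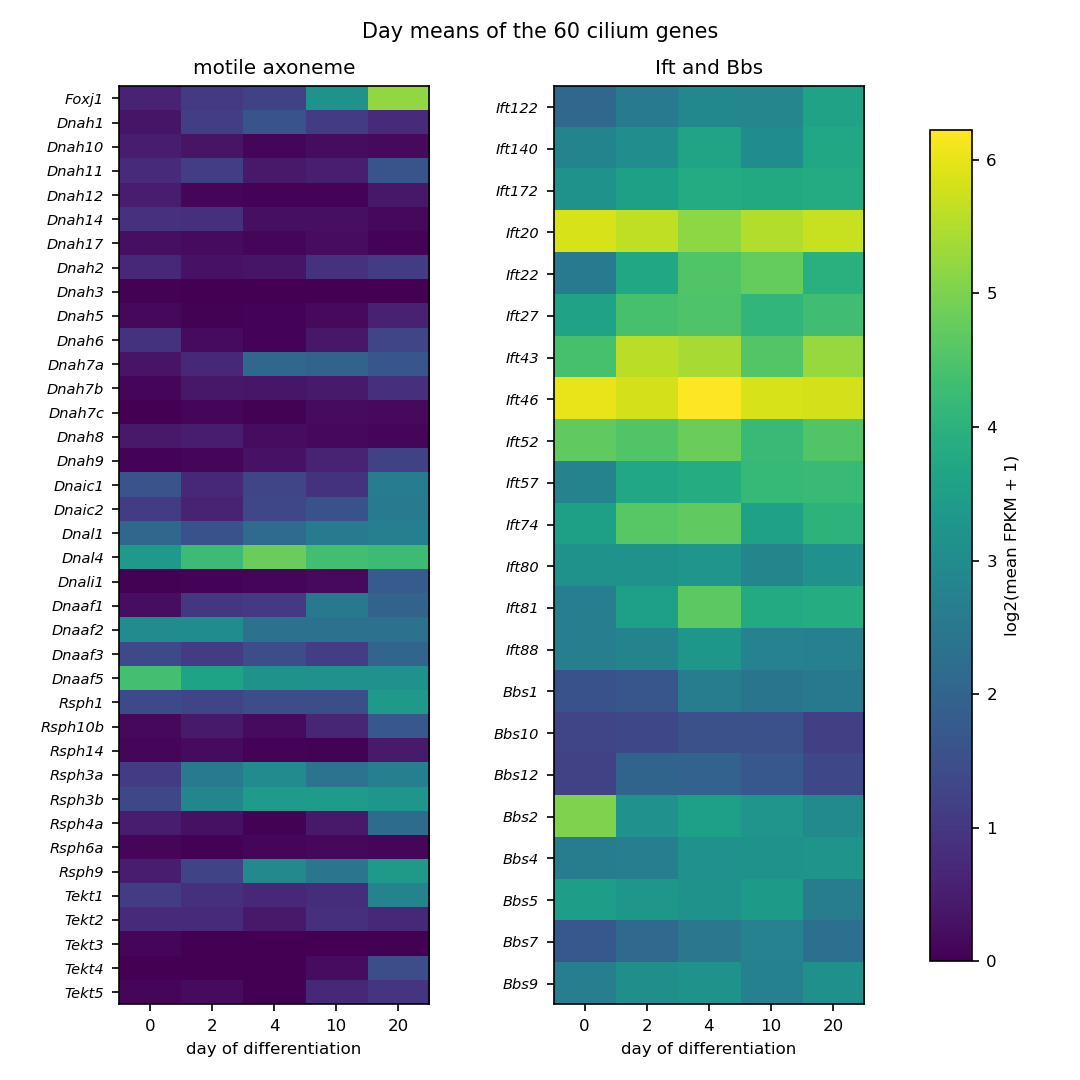
Day means of all 60 genes as log2(mean FPKM + 1), motile axoneme genes by family on the left and Ift and Bbs genes on the right, columns in order of day. In the left panel 11 to 15 of the 38 genes had a mean of at least 1 FPKM on days 0 to 10 and 23 had one at day 20, whereas all 22 genes on the right had one on every day.

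Foxj1, the transcription factor of motile ciliogenesis, rose in 2 large steps. It stood at 0.46 to 0.67 FPKM (median 0.54) in the 7 day-0 libraries, at 1.28, 1.22 and 0.74 at day 2, and at 1.27, 1.26 and 1.37 at day 4. At day 10 it was 8.49, 7.94, 7.17, 9.09 and 7.76, and at day 20 it was 40.4, 31.6, 33.9 and 38.7. No day-10 library overlapped day 4, and no day-20 library overlapped day 10. The mean rose 6.22-fold from day 4 to day 10 (log2 change 1.98 ± 0.09, limma adjusted p = 1.56e-14) and 4.47-fold from day 10 to day 20 (2.03 ± 0.08, adjusted p = 1.97e-15). The early change from day 0 to day 2 was 0.42 ± 0.08 (adjusted p = 0.00015), a call that was lost under quantile normalization. The step from day 2 to day 4 was 0.16 ± 0.10 and was not called (adjusted p = 0.17).

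Among the axoneme genes, Dnali1, Rsph1 and Tekt1 were not called at the first of these steps and rose at the second. Of those tested, Dnah9 came nearest to the course of Foxj1 in the values as deposited. Over the 22 libraries the Pearson correlation of log2(FPKM + 1) with Foxj1 was 0.982 for Dnah9, 0.939 for Rsph10b and 0.903 for Dnaic2, the highest of the tested motile genes, and 0.901 for Ift122. Dnah9 ranked 135 among all tested genes. Dnah9 and Rsph10b passed the filter only through day 20, the highest day of Foxj1, so the filter itself favoured such a likeness. The motile axoneme genes below the filter were not ranked. The 5 tested genes outside the list that were most like Foxj1 were Mlc1 (0.997), an astrocyte membrane protein, and Islr, Cyp4v3, Eln (elastin) and Misp (0.996 each). These correlations are descriptions over 22 libraries of 5 days, and any gene that rises steadily with time scores high.

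**Figure D3:**
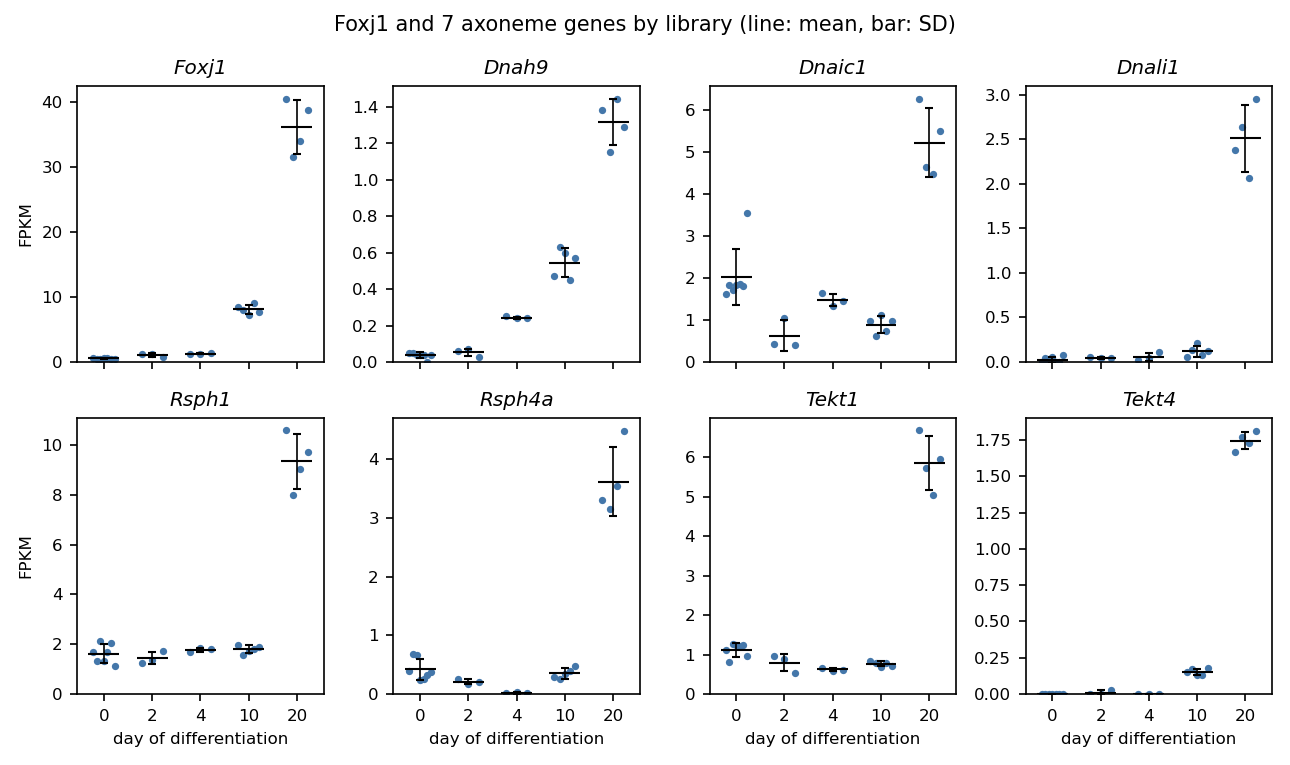
FPKM of Foxj1 and of 7 axoneme genes in every library by day, each panel with its own linear axis from 0; lines are day means and bars are SD (7, 3, 3, 5 and 4 libraries). In the values as deposited Foxj1 and Dnah9 were already higher at day 10 than at day 4 (for Dnah9 not under quantile normalization), while Dnali1, Rsph1 and Tekt1 were low until day 10 and high in all 4 day-20 libraries.

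The Dnah genes encode the heavy chains, the motor subunits of the dynein arms, and they were low throughout. Of the 15, no gene had a mean of 1 FPKM at day 0 and 5 had one at day 20. The highest day mean was 3.33 ± 0.76 FPKM (SD, n = 3), for Dnah7a at day 4. From day 10 to day 20, 6 of the 15 were called higher and 3 lower without the filter, where 31.9% and 31.4% of all genes were.

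Dnah9 encodes an outer arm heavy chain. It was at 0.00 to 0.05 FPKM in the day-0 libraries and at 0.06, 0.07 and 0.03 at day 2. It then read 0.25, 0.24 and 0.24 at day 4, 0.47, 0.63, 0.60, 0.45 and 0.57 at day 10, and 1.38, 1.15, 1.44 and 1.29 at day 20. Each of these last 3 days lay above the one before without overlap. The step from day 4 to day 10 (0.31 ± 0.05, adjusted p = 6.62e-06) did not hold under quantile normalization, where it was -0.08. Dnah9 passed the filter only through day 20, and without the filter the final step was 0.58 ± 0.04 on the log2 scale (limma adjusted p = 9.21e-12). Dnah11, another outer arm heavy chain, was at 0.31 to 0.74 FPKM at day 10 and at 2.22, 1.47, 2.44 and 2.16 at day 20 (1.08 ± 0.13, adjusted p = 1.78e-07). It overlaps Cdca7l in the RefSeq annotation, and since nothing used here states whether counting kept the strand, reads of the 2 genes may not be told apart. Dnah5, the outer arm heavy chain most often altered in human primary ciliary dyskinesia, was not tested with the filter. Without it Dnah5 rose from 0.10 to 0.13 FPKM at day 10 to 0.46, 0.45, 0.53 and 0.55 at day 20 (log2 change 0.43, adjusted p = 3.71e-13).

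Dnah6 and Dnah12, inner arm heavy chains, were detected at low levels at day 0, fell and came back. Dnah6 was at 0.74 to 1.02 FPKM (median 0.85) at day 0, at 0.18, 0.08 and 0.13 at day 2, and at 0.05, 0.07 and 0.02 at day 4. It stood at 0.28 to 0.38 at day 10 and at 1.35, 1.31, 1.37 and 1.82 at day 20. The fall from day 0 to day 2 (-0.72 ± 0.06, limma adjusted p = 5.21e-10) and the rise from day 10 to day 20 (0.88 ± 0.06, adjusted p = 1.09e-11) were both called, with no overlap of libraries. Dnah12, below the filter, was at 0.29 to 0.68 FPKM at day 0, no higher than 0.13 at days 2, 4 and 10, and at 0.30, 0.44, 0.29 and 0.28 at day 20. Fitted without the filter, Dnah12 changed by -0.40 ± 0.07 at the first step (adjusted p = 1.71e-05) and 0.35 ± 0.06 at the last (adjusted p = 5.36e-05). Its day-20 libraries lay within the day-0 range in 3 of 4 cases or just under it.

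A pair of inner arm genes ran the other way. Dnah1 rose from a mean of 0.27 ± 0.12 FPKM (SD, n = 7) at day 0 to 1.98, 2.15 and 2.11 at day 4, and was down to 0.61, 0.73, 0.49 and 0.83 at day 20 (-0.36 ± 0.07 from day 10, limma adjusted p = 0.00017). Dnah7a rose 5.10-fold from day 2 to day 4, to 3.52, 3.98 and 2.49 FPKM (1.38 ± 0.12, adjusted p = 1.6e-09), and read 1.97, 2.02, 2.02 and 2.68 at day 20. Dnah7a, Dnah7b and Dnah7c are near-identical copies, so the share of reads given to each is uncertain. Dnah14 was at 0.50 to 1.27 FPKM at day 0 and at 0.04, 0.06, 0.24 and 0.04 at day 20 (-0.74 ± 0.09 between these days without the filter, adjusted p = 2.21e-07). The other Dnah genes outside the tested set (Dnah3, Dnah7b, Dnah7c, Dnah8, Dnah10 and Dnah17) passed 1 FPKM in at most 1 library each, and Dnah3 did not pass 0.05.

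Dynein intermediate and light chains anchor and tune the arms. At the last step 3 of the 5 were called higher and 0 lower as deposited, where 37.2% and 38.1% of all tested genes were. Under quantile normalization, and with libraries rescaled to the same sum, it was 3 and 1. Of the 3 called higher as deposited, Dnali1 had passed the filter only through day 20. Dnali1, the light intermediate chain of inner arms, was at 0.00 to 0.21 FPKM in every library up to day 10 and at 2.38, 2.64, 2.07 and 2.95 at day 20. That is a 20.9-fold rise of the mean from day 10 (1.64 ± 0.05 without the filter, limma adjusted p = 3.77e-16), the largest ratio at this step among the 60 genes, from a level so low that the ratio itself is imprecise. Dnaic1, an outer arm intermediate chain, was at 0.97, 0.62, 1.13, 0.73 and 0.98 FPKM at day 10 and at 6.27, 4.64, 4.48 and 5.50 at day 20 (1.72 ± 0.14, adjusted p = 4.1e-10). Like Dnah6 it had been higher at day 0 (1.62 to 3.54, median 1.84) than at day 2 (0.42, 1.06 and 0.40), a log2 change of -0.90 ± 0.15 (adjusted p = 1.07e-05).

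Dnaic2, its partner chain, rose 2.53-fold at the last step, from 1.85 to 2.03 FPKM at day 10 to 5.37, 4.63, 5.04 and 4.83 at day 20 (1.01 ± 0.09, limma adjusted p = 2.3e-09). Dnali1 overlaps Gnl2 and Dnaic1 overlaps Enho in the RefSeq annotation, with the same limit as for Dnah11. The light chains Dnal4 and Dnal1 did not follow them. Dnal4 rose from a mean of 9.26 ± 0.80 FPKM (SD, n = 7) at day 0 to 18.32, 18.00 and 18.14 at day 2 (0.90 ± 0.06, adjusted p = 6.36e-12) and stood at 17.2 to 19.5 at day 20. Its change from day 10 to day 20 was -0.07 ± 0.06 (adjusted p = 0.25), and that of Dnal1 0.12 ± 0.09 (adjusted p = 0.25).

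The Dnaaf genes encode factors that assemble dynein arms in the cytoplasm, and the 4 of them took 4 courses. Dnaaf1 rose early and again before day 20: it read 0.09 to 0.22 FPKM at day 0, 0.97, 1.07 and 0.87 at day 2, and 5.01, 5.03, 4.30, 4.98 and 4.20 at day 10. It was lower at day 20, at 3.40, 2.83, 2.25 and 3.29 (-0.54 ± 0.07, limma adjusted p = 9.48e-07). Dnaaf3 rose at the last step from 1.02 to 1.42 FPKM to 3.69, 2.49, 2.60 and 3.60 (0.90 ± 0.11, adjusted p = 2.06e-07). Dnaaf5 was highest at day 0, at 17.6 to 22.9 FPKM (median 18.3), and fell to 11.57, 12.16 and 10.00 at day 2 (-0.76 ± 0.11, adjusted p = 1.52e-06). Dnaaf2 fell 1.77-fold from day 2 to day 4 (-0.69 ± 0.14, adjusted p = 0.00017). Neither Dnaaf2 nor Dnaaf5 was called at the last step (-0.02 ± 0.12 and 0.00 ± 0.10). Dnaaf1 overlaps Taf1c and Dnaaf5 overlaps Prkar1b in the RefSeq annotation.

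Of the 8 radial spoke genes, 4 were called higher and 1 lower from day 0 to day 2 without the filter (34.5% and 26.1% of all genes so fitted), and 2 of the 4, Rsph3a and Rsph3b, are near-identical copies. From day 10 to day 20, 6 of the 8 were called higher (31.9% of all genes), and the others, Rsph3b and Rsph6a, were not called. The call of Rsph14 lay near the floor, at 0.00 to 0.06 FPKM at day 10 and 0.00, 0.31, 0.44 and 0.72 at day 20, with overlap. Rsph14 also overlaps Gnaz in the RefSeq annotation. Among the 6 tested with the filter the split was 5 higher to 0 lower as deposited. It was 5 to 1 under quantile normalization and 4 to 1 with libraries rescaled to the same sum. Rsph4a and Rsph10b had libraries at 1 FPKM at day 20 alone. The largest rises at the last step were those of the spoke head genes Rsph1 and Rsph4a. Rsph1 was at 1.14 to 2.13 FPKM in every library up to day 10 and at 10.61, 8.01, 9.02 and 9.72 at day 20, a 5.19-fold rise of the mean from day 10 (1.88 ± 0.10, limma adjusted p = 2.7e-13). Rsph4a, which was at 0.25 to 0.48 FPKM at day 10, reached 3.31, 3.15, 3.55 and 4.48 (1.77 ± 0.09 without the filter, adjusted p = 5.25e-13). Rsph10b, fitted without the filter, was called higher already from day 0 to day 2 (0.32 ± 0.09, adjusted p = 0.0029). At the last step it rose 3.84-fold, to 2.31, 2.13, 1.68 and 2.86 FPKM (1.03 ± 0.08 in the same fit, adjusted p = 9.47e-10). Rsph1 overlaps Ubash3a in the RefSeq annotation.

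The largest rises at the first step were those of the spoke stalk genes Rsph3a and Rsph3b. Rsph3a rose from 0.88 to 1.43 FPKM (median 1.08) at day 0 to 4.67, 5.22 and 5.09 at day 2 (1.5 ± 0.08, limma adjusted p = 5.25e-13). Rsph3b rose from 1.06 to 2.18 FPKM to 6.08, 5.95 and 6.83 (1.52 ± 0.11, adjusted p = 2.28e-11). Their reads may be shared, so they are not 2 independent rises. Rsph3a was also called higher at the last step (0.33 ± 0.08, adjusted p = 0.0012), a call lost with libraries rescaled to the same sum. Rsph9, a spoke head gene, rose to 1.70, 1.67 and 0.85 FPKM at day 2 (0.76 ± 0.12 from day 0, adjusted p = 6.01e-06). It rose further to 6.58, 6.55 and 6.67 at day 4 (1.68 ± 0.14, adjusted p = 4.88e-10). A called fall to 3.86 to 4.98 at day 10 followed (-0.48 ± 0.12, adjusted p = 0.0017). The last step took Rsph9 to 10.31, 7.72, 8.78 and 9.97 at day 20 (0.89 ± 0.11, adjusted p = 4e-07), so part of that rise regained the day-4 level. Rsph9 overlaps Mrps18a, which encodes a mitochondrial ribosomal protein, in the RefSeq annotation. Rsph6a did not pass 0.28 FPKM in any library.

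Tektins form filaments along the microtubule doublets. Tekt1 was at 0.54 to 1.27 FPKM in every library up to day 10 and at 6.68, 5.72, 5.03 and 5.94 at day 20, a 7.63-fold rise of the mean (1.95 ± 0.08, limma adjusted p = 2.55e-15). Tekt4 is listed at 0 in all 7 day-0 libraries and all 3 of day 4, read 0.13 to 0.18 FPKM at day 10, and 1.67, 1.77, 1.73 and 1.81 at day 20. It passed the filter only through day 20, and without the filter the change from day 10 was 1.25 ± 0.02 (adjusted p = 4.69e-22). Tekt2 was not called at the last step (-0.15 ± 0.16, adjusted p = 0.41), and its library values of 0.20 to 1.52 FPKM overlapped between all days. Tekt5, fitted without the filter, appeared at day 10 (0.51 to 0.83 FPKM, after 0.00 in the 3 libraries of day 4; log2 change 0.71, adjusted p = 6.47e-10). Tekt3 was at most 0.13 FPKM.

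**Figure D4:**
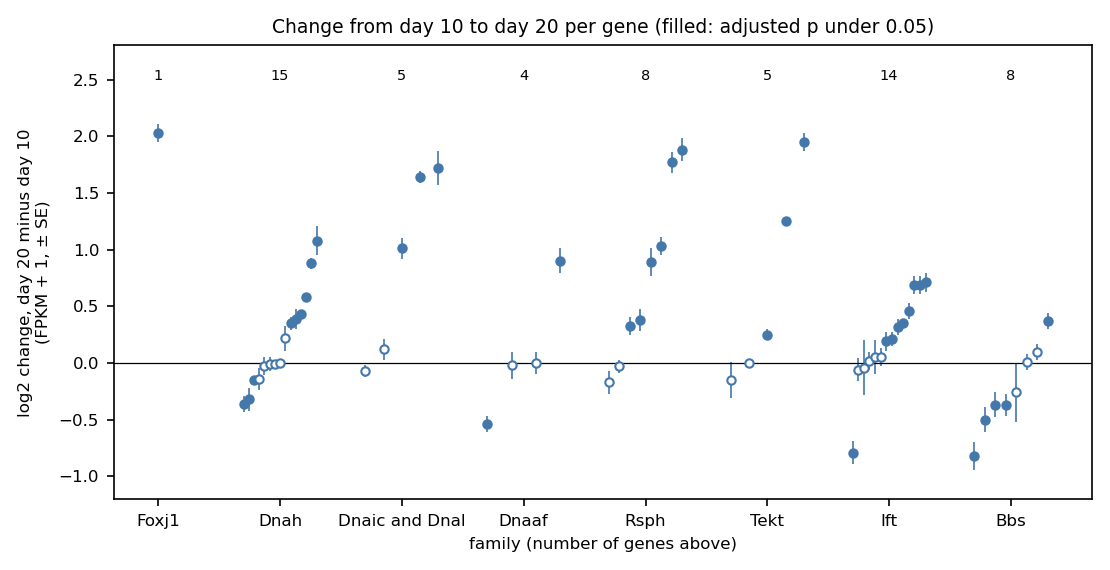
Log2 change of FPKM + 1 from day 10 to day 20 (± SE) for each of the 60 genes by family, limma without the filter on low values; filled points have an adjusted p under 0.05, open points do not, and the number of genes stands above each family. The largest rises were those of Foxj1, Tekt1 and Rsph1, and the Ift and Bbs genes lay between -0.82 and 0.71.

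Ift genes were expressed from the start, and their 2-fold changes fell in the first 10 days. Of the 14, 8 were called higher and 2 lower from day 0 to day 2, where 42.0% and 32.1% of all tested genes were called. From day 2 to day 4 it was 6 and 1 (38.0% and 34.0% of all tested genes), and from day 4 to day 10 it was 2 and 8 (41.4% and 32.3%). The last of these falls held under every scaling (8 or 9 called lower), whereas the number called higher from day 2 to day 4 ran from 4 under quantile normalization to 12 with libraries rescaled to the same sum. From day 10 to day 20, 8 were called higher and 1 lower, and 5 and 1 with libraries rescaled to the same sum. Day 4 was the highest day for 8 of the 14.

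Ift74 and Ift81, which together bind tubulin in the train's core, shared a peak. Ift74 was at 9.54 to 12.25 FPKM (median 10.52) at day 0 and at 22.81, 23.90 and 23.26 at day 2 (1.07 ± 0.08, limma adjusted p = 4.31e-11). It was at 26.91, 24.68 and 23.45 at day 4, at 9.48 to 12.01 at day 10 (-1.13 ± 0.08, adjusted p = 4.81e-11) and at 14.06 to 17.04 at day 20. The day-10 libraries lay within the range of day 0 or just under it. Ift74 overlaps Lrrc19 in the RefSeq annotation. Ift81 rose at both early steps, from 4.37 to 6.36 FPKM at day 0 to 10.26, 10.64 and 10.19 at day 2 and 23.05, 25.23 and 24.54 at day 4 (1.15 ± 0.10, adjusted p = 4.52e-10), then fell to 12.4 to 13.8 at day 10 (-0.85 ± 0.09, adjusted p = 8.82e-09).

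Ift43, of the A complex that serves return transport, had the same early rise and a second one. It was at 17.5 to 24.9 FPKM (median 19.7) at day 0, 48.60, 43.10 and 48.55 at day 2 (1.16 ± 0.08, limma adjusted p = 2.43e-11), 20.6 to 23.9 at day 10 and 42.86, 36.12, 36.20 and 33.93 at day 20 (0.69 ± 0.08, adjusted p = 7.19e-08). The other A complex genes in the list, Ift122 and Ift140, rose at the last step as well. Ift122 went from 6.05 to 7.0 FPKM to 11.75, 9.73, 10.79 and 12.19 (0.71 ± 0.08, adjusted p = 3.25e-08), and Ift140 from 6.67 to 7.64 to 12.20, 10.30, 12.69 and 13.51 (0.69 ± 0.08, adjusted p = 1.63e-07). These 3 had the largest rises of the 14 at that step, and none of their day-20 libraries overlapped day 10. Ift140 had been at 10.9 to 12.0 FPKM at day 4 and was called lower from there to day 10 (-0.62 ± 0.09, adjusted p = 2.41e-06), so its late rise was largely a return. Ift122 overlaps Mbd4 and Ift140 overlaps Tmem204 in the RefSeq annotation.

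The small GTPase-like Ift22, of the B complex, rose to day 4 and fell after day 10. It read 3.85 to 5.57 FPKM at day 0, 12.28, 14.62 and 9.89 at day 2 (1.18 ± 0.10, limma adjusted p = 4.1e-10), 20.2 to 23.4 at day 4 (0.83 ± 0.12, adjusted p = 1.43e-06), 24.0 to 27.7 at day 10 (0.20 ± 0.10, adjusted p = 0.080, not called) and 15.89, 13.84, 14.50 and 13.75 at day 20 (-0.79 ± 0.09, adjusted p = 1.39e-07). It was the only one of the 14 called lower at the last step. Ift57 rose from 5.07 to 6.83 FPKM at day 0 to 12.07, 12.42 and 12.02 at day 2 (0.94 ± 0.08, adjusted p = 4.82e-10) and was not called at the last step (0.02 ± 0.08, adjusted p = 0.80). Ift22 and Ift57 are the genes shown above with 2 X-box matches each. Of the remaining B complex genes, Ift27, Ift52, Ift80, Ift88 and Ift172 had day means between 5.36 and 27.5 FPKM, and Ift52, Ift80, Ift88 and Ift27 were called lower from day 4 to day 10 (-0.64 ± 0.05, -0.41 ± 0.08, -0.51 ± 0.11 and -0.40 ± 0.08).

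Ift20 and Ift46 were the most abundant at day 0, and neither was called higher in the first 4 days. Ift20, which also works at the Golgi, fell from 53.3 to 61.0 FPKM at day 0 to 34.51, 36.16 and 34.72 at day 4, where the step from day 2 was -0.45 ± 0.07 (limma adjusted p = 5.15e-06), and was called higher at both later steps (0.32 ± 0.06, adjusted p = 6.58e-05, and 0.21 ± 0.06, adjusted p = 0.0018, the latter lost with libraries rescaled to the same sum), ending at 47.9 to 53.3 at day 20. Ift46 ranged from 33.7 to 94.1 FPKM (median 55.3) within day 0 alone, and from 40.4 to 89.4 in all later libraries, and was called in none of the 5 comparisons.

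**Figure D5:**
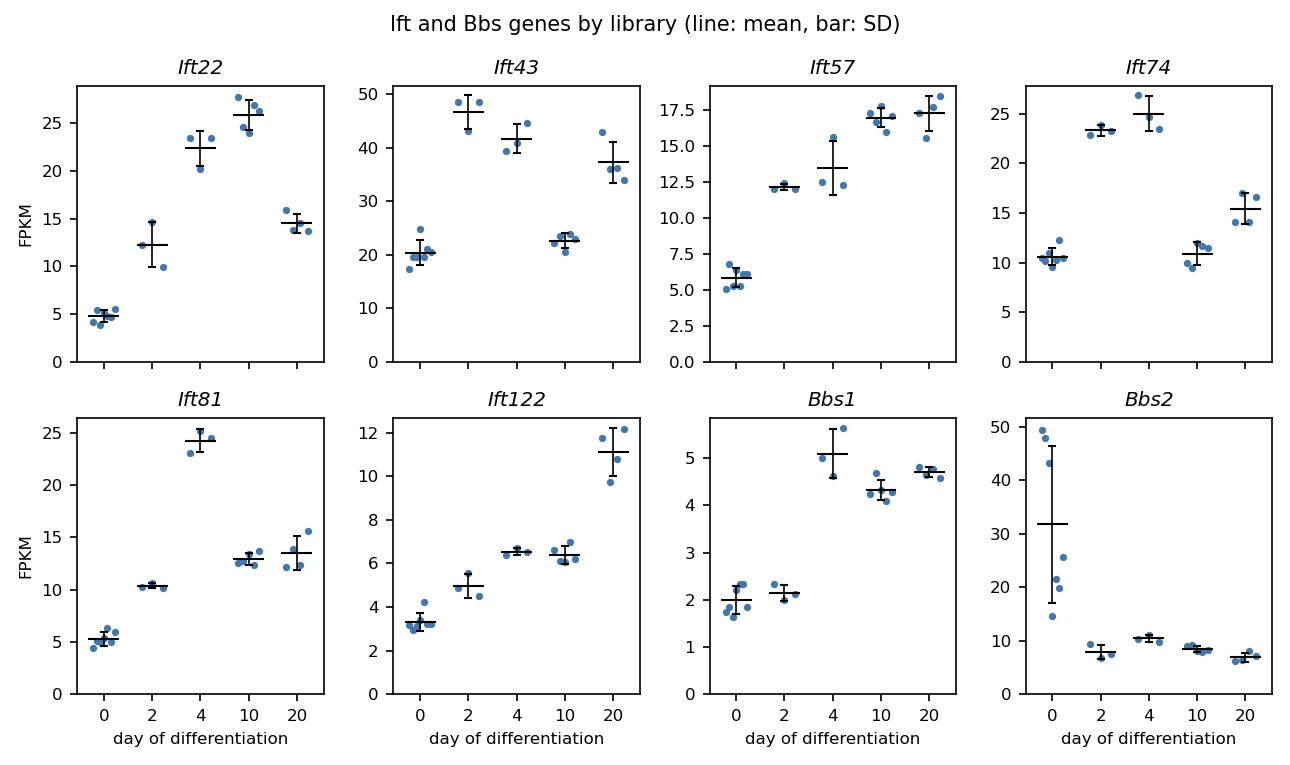
FPKM of 6 Ift and 2 Bbs genes in every library by day, each panel with its own linear axis from 0; lines are day means and bars are SD (7, 3, 3, 5 and 4 libraries). Ift74 and Ift81 were highest at day 4, Ift43 and Ift122 were higher in all 4 day-20 libraries than in the 5 of day 10, and the day-0 libraries of Bbs2 fell into replicates 1 to 3 at 43.2 to 49.5 and replicates 4 to 7 at 14.5 to 25.7.

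The Bbs genes took different courses, and the ratio of highest to lowest day mean ran from 1.51 for Bbs10 to 4.59 for Bbs2. Of the 8, 3 were called higher and 1 lower from day 0 to day 2, 3 higher from day 2 to day 4, 1 and 3 from day 4 to day 10, and 1 and 4 from day 10 to day 20. All tested genes split 42.0% to 32.1%, 38.0% to 34.0%, 41.4% to 32.3% and 37.2% to 38.1% at these steps. The counts of the last step were the same under every scaling, whereas from day 0 to day 20 the 8 genes split 4 higher to 2 lower as deposited and were all 8 called lower under quantile normalization. Bbs1, a BBSome subunit, rose 2.37-fold from day 2 (2.33, 1.99 and 2.13 FPKM) to day 4 (5.0, 4.63 and 5.65; log2 change 0.95 ± 0.09, limma adjusted p = 2.97e-09). Bbs5 fell at the last step from 8.92 to 10.91 FPKM to 3.83, 4.98, 4.63 and 6.98 (-0.82 ± 0.11, adjusted p = 1.47e-06). Bbs7 fell there too (-0.50 ± 0.11, adjusted p = 0.00029), as did Bbs10 and Bbs12 (-0.37 ± 0.11, adjusted p = 0.0046, and -0.37 ± 0.10, adjusted p = 0.0029), relatives of chaperonins that help the BBSome assemble. Bbs9 rose (0.37 ± 0.07, adjusted p = 7.86e-05).

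Bbs2 stood apart, since its day-0 libraries formed 2 sets. It read 49.45, 47.93 and 43.21 FPKM in replicates 1 to 3 and 14.52, 21.53, 19.75 and 25.66 in replicates 4 to 7. At day 2 it was at 9.43, 6.79 and 7.48, below every day-0 library, and the fall was -1.76 ± 0.26 (limma adjusted p = 3.67e-06). No label names a batch for these sets, which were seen in the data. In all, 9 of the 60 genes (15.0%) had no overlap between replicates 1 to 3 and 4 to 7 (Bbs2, Bbs10, Bbs12, Dnaaf2, Dnah8, Dnaic2, Ift20, Ift122 and Rsph4a), as did 25.8% of all genes in the table. Counts of calls at the 2 comparisons with day 0 stayed within 1.5 times with either set alone.

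From day 0 to day 20, 27 of the 38 motile axoneme genes were called higher and 7 lower without the filter, where 48.5% and 29.9% of all genes were. Among the 26 tested it was 22 and 3 (55.3% and 35.5% of the tested genes), and for the 22 Ift and Bbs genes 13 and 4. This comparison leans on scaling: the median of all tested genes was 0.38 as deposited, -0.10 under quantile normalization and 0.58 with libraries rescaled to the same sum. Under quantile normalization the 26 motile axoneme genes split into 14 higher and 10 lower and the 22 Ift and Bbs genes into 7 and 11. Relative to the median of all tested genes, the median of the 26 was 0.86 higher as deposited and 0.46 higher under quantile normalization. For the transport genes these differences were 0.16 and -0.04. Of the 26, 5 had reached 1 FPKM only at day 20. Without the filter, as deposited, the differences were closer together, at 0.6 for the 38 motile axoneme genes and 0.45 for the transport genes. At the last step the splits for the motile axoneme genes were 15 and 3 as deposited, 15 and 5 under quantile normalization, 14 and 5 with the same sum and 15 and 3 by median ratio.

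Genes of the motile cilium outside the list rose at the last step as well. A set of 59 such genes in the table (central pair, dynein docking, nexin link and other axonemal proteins) was described by its counts. From day 10 to day 20, 46 of the 58 with any value were called higher and 1 lower without the filter (31.9% and 31.4% of all genes so fitted). Among the 45 tested it was 37 and 1, with a median log2 change of 0.89 against -0.02 over all tested genes. Of the 59, 25 had a mean of at least 1 FPKM at day 10 and 44 at day 20. Some of the 45 may therefore have passed the filter only through day 20, which would raise that median. The largest rises were those of Cfap126 (1.35 to 1.83 FPKM at day 10, 17.5 to 23.4 at day 20; 3.05 ± 0.12, limma adjusted p = 6.17e-16), Capsl (1.65 to 2.15, then 16.9 to 19.8; 2.72 ± 0.13, adjusted p = 2.46e-14) and Fam183b (4.92 to 5.85, then 31.7 to 44.1; 2.52 ± 0.21, adjusted p = 3.2e-10). Spef1, a microtubule bundler of the central pair, was the 1 called lower (-0.25 ± 0.07, adjusted p = 0.0035). At the 3 earlier steps the 45 split 15 higher to 12 lower, 14 to 8 and 16 to 8, but 9 to 20, 10 to 11 and 3 to 25 under quantile normalization, so no direction is given there. All tested genes split 42.0% to 32.1%, 38.0% to 34.0% and 41.4% to 32.3% at these steps and 37.2% to 38.1% at the last, where quantile normalization gave this set 30 to 2. From day 0 to day 2 its largest falls were those of Ak7 (4.24 to 9.87 FPKM, then 0.13 to 0.21; -2.69 ± 0.19, adjusted p = 2.73e-11) and Efhc2 (19.7 to 24.9, then 5.66 to 6.45; -1.70 ± 0.08, adjusted p = 7.55e-14).

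Regulators of multiciliated cells are described by levels and counts, and no direction is read from the split of so small a list. Mcidas and Gmnc, which start the multiciliated programme, and Deup1, which builds its many centrioles, had no library above 0.08, 0.08 and 0.23 FPKM. Of the 13 tested of these 16 regulators, 3 were called higher and 6 lower from day 10 to day 20, shares of 23.1% and 46.2% beside 37.2% and 38.1% of all tested genes. The 3 were Rfx3 (2.92 to 3.34 FPKM, then 4.98 to 6.05; 0.65 ± 0.06, limma adjusted p = 5.05e-09), Rfx2 (0.37 ± 0.08, adjusted p = 0.0005), both X-box binding factors, and Ccno (0.46 ± 0.13, adjusted p = 0.0023), a centriole amplification gene whose call, unlike those of Rfx2 and Rfx3, was lost under quantile normalization. Rfx3 had an earlier and higher peak at day 4 (7.93 to 8.77 FPKM). Foxn4 peaked on that day as well (8.18 to 9.73 FPKM) and is listed at 0 in all 4 day-20 libraries.

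Transport and primary cilium genes outside the list are described by their counts. Of 18 further transport and BBSome genes tested, 13 were called higher and 3 lower from day 2 to day 4 (8 and 4 under quantile normalization), where 38.0% and 34.0% of all tested genes were. From day 10 to day 20 they split 5 and 5 as deposited, 2 and 11 under quantile normalization and 1 and 12 with libraries rescaled to the same sum, where all tested genes split 37.2% and 38.1%. Of 11 genes for the transport motors, 4 were higher and 2 lower from day 2 to day 4, shares of 36.4% and 18.2%, with 5 and 5 under quantile normalization and 8 and 1 with the same sum. The largest rises were those of Kif3a (14.6 to 15.8 FPKM, then 35.6 to 36.6; 1.21 ± 0.07, limma adjusted p = 2e-12), Kifap3 and Kif3b, the kinesin-2 subunits that pull trains outward. From day 10 to day 20 it was 2 and 7, and 1 and 9 under quantile normalization as with the same sum. Of 22 transition zone genes, which gate the cilium base, 12 were higher and 2 lower from day 2 to day 4 and 6 and 6 from day 10 to day 20. Under quantile normalization the latter split was 4 and 12, and that from day 2 to day 4 was 7 and 6. Of 14 hedgehog pathway genes 13 were higher from day 0 to day 2 under every scaling, where 42.0% of all tested genes were as deposited. Among the 13 were the target genes Gli1 (4.97 to 6.69 FPKM, then 20.1 to 20.9) and Ptch1 (1.77 ± 0.07, adjusted p = 9.61e-16). At the later steps the 14 split 5 higher to 8 lower, 4 to 7 (41.4% and 32.3% of all tested genes from day 4 to day 10) and 3 to 7 as deposited.

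Markers of cell types that carry or lack motile cilia moved in the same days, and their part in these results was not tested. Beside the astrocyte and epithelial sums given above, that of 6 floor plate markers, 1 of which (Shh) is also in the hedgehog list, went from 109 to 140 FPKM at day 10 to 132 to 153 at day 20. The summed level of 6 neuron markers fell from 736 to 753 FPKM to 249 to 250. Of the 9 spermatid markers, Tnp2 and Akap4 were at 0 in every library and the 9 together summed to 1.41 to 2.77 FPKM at day 20. The 5 node markers summed to 32.6 to 35.8 FPKM at day 0, nearly all of it Nodal, to 4.77 to 6.37 at day 10 and to 3.2 to 4.14 at day 20, nearly all of it Dand5, which was called lower at the last step (-0.32 ± 0.08, limma adjusted p = 0.00087). Noto, a defining gene of the node, was at 0 in every library. The 6 choroid plexus markers summed to 99.9 to 109 FPKM at day 20, above every day-10 library, the lowest of which was at 69.5, and 4 of the 6 had a mean of at least 1 at day 20. Of them Aqp1 (1.63 ± 0.06, limma adjusted p = 2.13e-16) and Clic6 (1.26 ± 0.18, adjusted p = 2.53e-06) rose at that step, Folr1 fell (-0.53 ± 0.13, adjusted p = 0.0013), Ttr was not called (0.12 ± 0.07, adjusted p = 0.12), and Kl and Kcnj13 did not pass 0.18 FPKM in any library. The 6 airway secretory markers summed to 5.58 to 10.2 at day 20, with Scgb1a1 at most 0.5. The 6 stem cell markers, at 2140 to 2550 FPKM together at day 0, were at 72.0 to 80.3 at day 2.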

How the data were processed

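Levels of 60 cilium genes were taken from the RNA-seq table of 22 libraries that the authors deposited, each library placed in the day its title gives. The deposited values were treated as FPKM from their column sums, since no header names the unit. Per the submitters' processing notes RSEM, with no version, and the mm9 build were used, and the sources used here do not give other steps. Per the labels' protocols polyA RNA was extracted on RNeasy columns and NEBNext Ultra kits made the libraries. The openness table of the 32 ATAC libraries was not used, for want of an annotation of its build.

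The 14982 of 21960 genes that reached 1 FPKM in 3 libraries were fitted on log2(FPKM + 1) by limma (version 3.58.1, R 4.3.3). The model had 1 mean per day, the empirical Bayes trend and 17 residual degrees of freedom. Tests were 2-sided and adjusted by Benjamini-Hochberg within each of 5 comparisons, the 4 steps between sampled days and day 20 against day 0, which share libraries. The script was first tested on simulated data. Alternatives were another pseudocount (0.1 or 0.5 FPKM), other filters, 3 scalings, a replicate block, subsets of day 0 and leaving out each library in turn. The counts and changes given without the filter come from 1 of these.

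The genes, the lists of related genes and the markers were chosen with earlier results of these data known, from textbook knowledge, and lists are described by counts and medians only. 1 gene of the further transport list, Ift22, is among the 60 and was left out of that list. All 60 genes could be named. Values by library were to be given for Foxj1 and, in each family, the 3 with the highest day mean and the 3 largest called changes in each direction from day 0 to day 20. Others, among them Dnah5, Dnah6, Dnah12, Rsph3a, Rsph4a, Ift74 and Ift81, were chosen after their values were seen. Overlapping neighbours were read from the RefSeq GRCm38.p6 annotation, used for names and neighbours only, and promoters from the RefSeq table of the same build.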

Additional observations from a re-analysis of the deposited data

Results flagged for a closer look

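In each day with 4 to 10 libraries, the highest and lowest library of each named gene was checked for its gap to the nearest other library relative to the range of the group, at Dixon's 95% critical value. Of 98 groups checked, 7 held such a library, and chance gives about 1 in 20. At day 20, Dnah7a was at 2.68 FPKM in replicate 4 (others 1.97 to 2.02) and Dnah14 at 0.24 in replicate 3 (others 0.04 to 0.06). At day 10, Dnah11 was at 0.74 in replicate 1 (others 0.31 to 0.43). At day 0, Dnaic1 was at 3.54 in replicate 7 (others 1.62 to 1.86) and Ift122 at 4.21 in replicate 5 (others 2.94 to 3.42). In day-0 replicate 6, Bbs4 was at 6.18 (others 4.61 to 5.23) and Dnah9 at 0.0 (others 0.04 to 0.05). No library was far from the rest in more than 2 of these genes.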

How the results depend on the processing

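Counts of calls given first are those of the fit with the filter. Under quantile normalization, which moves the median of all genes to between -0.12 and -0.01, motile axoneme genes called higher went from 11 to 2 (day 10 against day 4) and from 22 to 14 (day 20 against day 0). Those called lower went from 6 to 12, from 3 to 5 (day 20 against day 10) and from 3 to 10 (day 20 against day 0). Ift and Bbs genes called higher went from 9 to 5 (day 4 against day 2) and from 13 to 7 (day 20 against day 0), and those called lower from 1 to 3 and from 4 to 11. Libraries rescaled to the same sum, which moves the median of all genes to between -0.17 and 0.58, gave 17 Ift and Bbs genes higher (day 4 against day 2), 6 higher (day 10 against day 4) and 2 lower (day 20 against day 0), and 3 (day 4 against day 2) and 5 (day 20 against day 10) motile axoneme genes lower. Rescaling by median ratio gave 2 (day 4 against day 2) and 7 (day 20 against day 0) Ift and Bbs genes lower. Keeping only genes with a mean of 1 FPKM tested 15 motile axoneme genes instead of 26 and called 4 (day 10 against day 4), 8 (day 20 against day 10) and 13 (day 20 against day 0) higher and 2 lower (day 4 against day 2). With no filter 7 were lower (day 20 against day 0). The cause of the shifts between scalings was not tested.

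Of the changes of named genes, 18 reversed. Under quantile normalization, Bbs1 was at -0.22 (day 2 against day 0), and from day 4 to day 10 Dnah9 was at -0.08, Dnah14 at -0.26, Dnaic2 at -0.29, Dnaaf2 at -0.37, Rsph1 at -0.48, Tekt1 at -0.32 and Bbs7 at 0.00. From day 0 to day 20 under the same setting, Dnah1 was at -0.46, Dnah11 at -0.34, Dnal1 at -0.44, Dnaic1 at -0.06, Dnaaf3 at -0.55, Bbs4 at -0.21, Bbs1 at -0.20 and Bbs7 at -0.58. With the same sum Ift20 was at 0.11 and Ift52 at 0.09 there. No named gene reversed at the step from day 10 to day 20 under any alternative run.

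Leaving out 1 library in turn gave 15 to 16 motile axoneme genes higher and 3 lower, and 8 to 9 Ift and Bbs genes higher and 5 lower, from day 10 to day 20, and moved no other count by more than 1.5 times. With the replicate block, 15 motile axoneme genes were higher and 4 lower at that step and 8 Ift and Bbs genes higher, and no count moved by more than 1.5 times. Replicate numbers do not pair the libraries: the correlation of deviations between same-numbered libraries was -0.146 to 0.219 (median 0.002, 34 pairs, 2 over 0.1). Read depth limits the low genes most, and its size is unknown here.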
